A study of Pinus pinaster with 12 samples.

Results

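Transcripts whose abundance was higher in maritime pine roots after ammonium supply are described here: their level in total polyadenylated RNA, their level after precipitation with an antibody against N6-methyladenosine (m6A), their m6A peaks, and their place in the order of transcript IDs. The transcripts were chosen by their input levels. A transcript was included when the lowest of its 3 ammonium input values was at least 2 times the highest of its 3 water input values and its mean ammonium input level was 3 CPM or more. CPM is the read count per 1000000 counts of the library. The rule returned 184 of the 253670 transcripts in the count table, 0.0725% of all transcripts and 0.454% of the 40511 that reached 3 CPM in the ammonium inputs, which are called transcripts of similar level below. The mirrored rule for lower transcripts returned 9 (0.00355%).

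Seedlings of Pinus pinaster from 1 provenance, aged 1 month, received 80 mL of 3 mM ammonium chloride or 80 mL of water after 3 days of acclimation, and roots were frozen 24 h later. The experiment was run 3 times. Fragmented polyadenylated RNA was sequenced after m6A precipitation (IP) and without it (input). The 4 groups were the ammonium IP, the water IP, the ammonium input and the water input, each with 3 libraries. Whole roots were used, so a change in the make-up of cells and a change of RNA per cell cannot be told apart.

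Ammonium is a main form of nitrogen for conifers of acidic soils. It enters root cells through transporters of the AMT family and is built into glutamine and glutamate by glutamine synthetase and glutamate synthase. m6A is a methyl mark on adenosines of messenger RNA, set by a methyltransferase complex and bound by proteins of the YTH family, and in plants it is known mainly near the ends of coding regions and in 3′ untranslated regions. In an m6A precipitation, fragments that carry the mark are recovered with the antibody, so a high level in the IP relative to the input marks RNA that the antibody bound well. The deposited files give transcript numbers (pp_ followed by digits) with no gene names, so neither the functions of these transcripts nor root marker genes could be looked up.

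Library totals were 65539363 to 73185176 counts in the ammonium IP, 57945305 to 63522543 in the water IP, 74257255 to 79703198 in the ammonium inputs and 69030249 to 81534388 in the water inputs. Libraries of 1 group differed by more than sampling noise in every pair, with chi-square values of 10.6 to 51.4 per degree of freedom. Replicates 1 and 2 of the water IP stood apart in opposite ways. Across 62730 transcripts the levels of replicate 1 correlated with those of the water inputs at a mean r of 0.406 and those of replicate 2 at 0.162, against 0.278 for replicate 3 and 0.255 to 0.275 for the ammonium IP libraries with their inputs. Transcripts are not independent, so these r values describe the libraries only. The main IP results are given with and without these libraries.

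In the input, which the rule used, the values of the 184 transcripts are a description. They were mostly of low to moderate level. The mean ammonium input level had a median of 9.41 CPM (quartiles 5.30 and 19.8), and the mean water input level a median of 1.82 CPM (quartiles 0.791 and 3.84). With ammonium, 40 lay between 3 and 5 CPM, 56 between 5 and 10, 60 between 10 and 30, 25 between 30 and 100, and 3 at 100 or more. CPM is not corrected for transcript length, so these values rank reads and not molecules.

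The ratio of the mean ammonium to the mean water input level had a median of 4.81, with quartiles of 3.45 and 9.74 and a lowest value of 2.41. The ratio on which the rule rests, lowest ammonium over highest water value, had a median of 2.48. It lay between 2 and 2.5 for 99 transcripts and at 4 or more for 17. edgeR's quasi-likelihood test called 97 of the 184 in the input, where 0.383% of all transcripts tested were called higher. The rule used the same input libraries, so this count describes the choice and is no separate support. The fitted log2 fold change of the 184 had a median of 2.31, and the median of all transcripts tested was 0.003.

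The transcript of highest mean ammonium input level was pp_203543, with 131, 183 and 186 CPM in the ammonium inputs and 45.8, 39.6 and 56.6 CPM in the water inputs. As the rule required, every ammonium value was at least 2 times every water value. The means were 166 ± 30.9 and 47.3 ± 8.61 CPM (SD, n = 3 each). Next came pp_209097, with 130, 196 and 144 CPM in the ammonium inputs and 61.8, 56.1 and 61.5 CPM in the water inputs (157 ± 34.9 and 59.8 ± 3.23, SD, n = 3 each). For this transcript the water values lay close together and replicate 2 was the highest ammonium value.

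The widest gap between the groups was that of pp_114918, with 0.979, 7.88 and 2.56 CPM in the ammonium inputs and 0.0491, 0.0265 and 0.0579 CPM in the water inputs. Its lowest ammonium value was 16.9 times its highest water value. It was followed by pp_188475, with 0.814, 6.64 and 4.72 CPM in the ammonium inputs and 0.0491, 0 and 0.0869 CPM in the water inputs, a ratio of 9.36. Both transcripts were near absence in the water inputs and spread over a wide range in the ammonium inputs.

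At the threshold the rule divided transcripts that differed little. Just inside it, pp_167124 had 3.84, 26.9 and 7.05 CPM in the ammonium inputs and 0.773, 1.92 and 0.565 CPM in the water inputs, and pp_58624 had 3.31, 16.8 and 5.98 CPM against 1.37, 1.48 and 1.65 CPM. Just outside it, pp_134923 had 28.6, 46.9 and 31.3 CPM in the ammonium inputs and 14.3, 11.9 and 13.6 CPM in the water inputs, and pp_78574 had 3.31, 3.08 and 3.50 CPM against 1.55, 0.980 and 1.27 CPM. A further 254 transcripts of similar level had a ratio between 1.5 and 2.

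**Figure D1:**
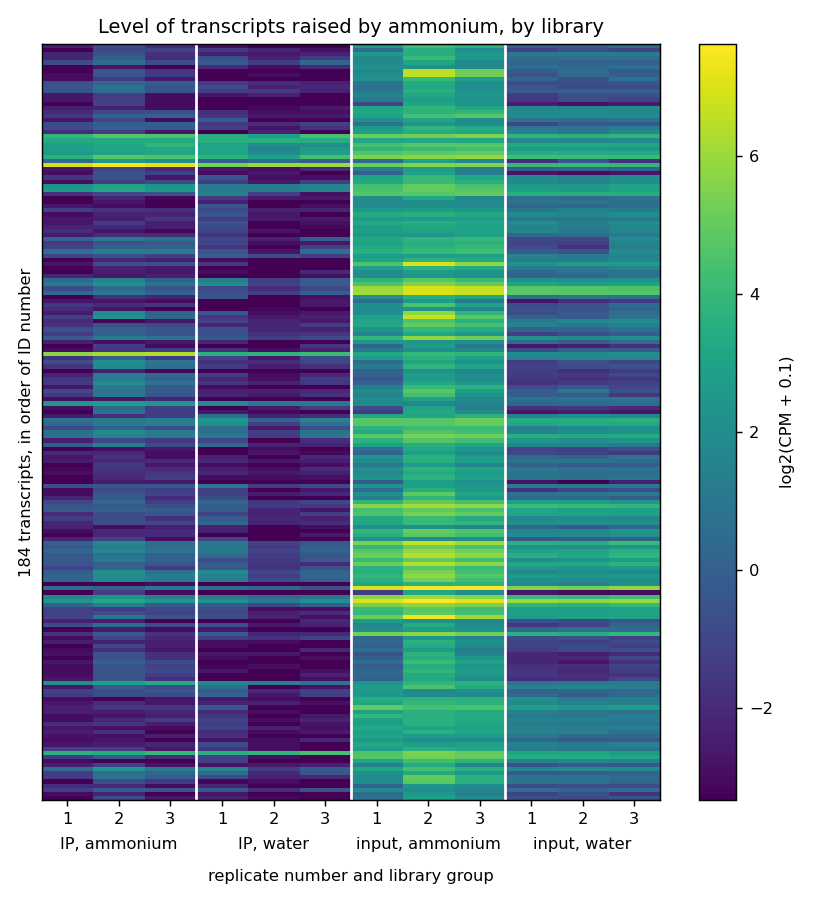
Level of each of the 184 raised transcripts as log2(CPM + 0.1), with 1 row per transcript in order of ID number and 1 column per library. The ammonium inputs are brighter than the water inputs by construction of the rule, ammonium input replicate 2 is the brightest column, and most rows are dark in all 6 IP libraries.

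Together the 184 transcripts took 0.211%, 0.446% and 0.302% of the reads of the ammonium inputs (replicates 1, 2 and 3) and 0.0731%, 0.0693% and 0.0780% of those of the water inputs. In the ammonium IP they took 0.0323%, 0.0562% and 0.0450% of the reads, and in the water IP 0.0236%, 0.0162% and 0.0229%. The ammonium mean was 0.0445% ± 0.0119 and the water mean 0.0209% ± 0.00408 in the IP (SD, n = 3 each), a ratio of 2.13, where the ratio in the input was 4.35. The IP groups did not overlap.

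Much of the IP share came from a few transcripts. A single one, pp_108799, held 33.4% of the summed ammonium IP level, and the 10 highest held 71.2%. Without these 10, the share was 0.00737%, 0.0199% and 0.0112% in the ammonium IP and 0.0109%, 0.00289% and 0.00541% in the water IP. The means still differed by a ratio of 2.01, but replicate 1 of the water IP then lay above replicate 1 of the ammonium IP, so the groups overlapped.

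**Figure D2:**
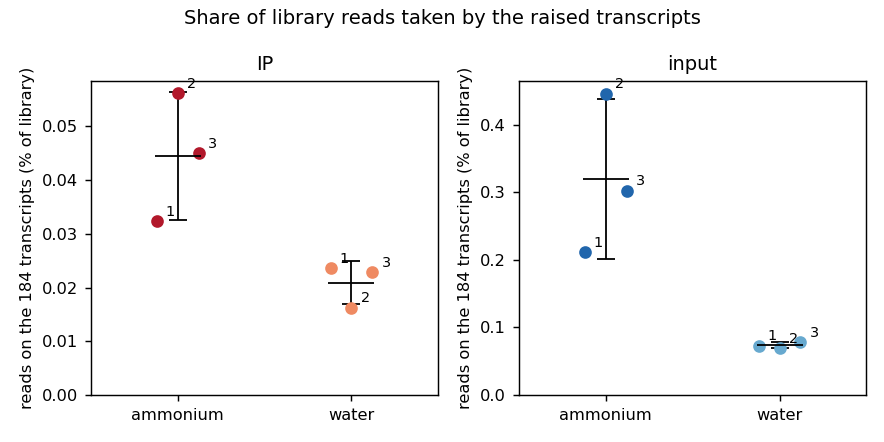
Share of library reads on the 184 raised transcripts, in percent, for the IP (left) and the input (right), ammonium left of water in each panel. Points are libraries with their replicate number, horizontal marks are means and bars are SDs (n = 3). In both panels the ammonium libraries lie above the water libraries, which the rule fixed for the input. Replicate 2 is the highest and replicate 1 the lowest ammonium library.

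The ammonium inputs, whose values the rule used, differed in level among themselves, and in the same order of libraries for most of the transcripts. The highest of the 3 ammonium input values was a median of 2.13 times the lowest (quartiles 1.52 and 4.69), where the water inputs had a median of 1.39. For all transcripts of similar level these medians were 1.22 and 1.19. The ammonium inputs spread more than 5-fold for 44 of the 184 (23.9%), against 0.499% of transcripts of similar level, and less than 1.5-fold for another 44. The values were closest for pp_128492, at 6.37, 6.48 and 6.41 CPM, and furthest apart for pp_180410, at 0.267, 9.57 and 3.78 CPM (both chosen after their values were seen).

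Ammonium input replicate 2 was the highest of the 3 for 153 transcripts (83.2%) and replicate 1 the lowest for 157 (85.3%). Among transcripts of similar level, replicate 2 was the highest for 27.7% and replicate 1 the lowest for 39.5%. The full order, replicate 2 above 3 above 1, held for 141 (76.6%), against 17.7% of transcripts of similar level. The rule limits the lowest ammonium value but does not say which library holds it.

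The IP libraries, which the rule did not use, had a similar order. In the ammonium IP, replicate 2 was the highest for 132 transcripts (71.7%, against 36.2% of transcripts of similar level), replicate 1 was the lowest for 131 (71.2%, against 33.4%), and the full order held for 99 (53.8%, against 19.96%). For 131 transcripts with at least 3 reads in both IP libraries, the log2 ratio of replicate 2 to replicate 1 had a median of 1.24 in the ammonium IP and 0.93 in the ammonium input, and both were positive for 106. Across these 131 transcripts the ratios in IP and input correlated at r = 0.642 (rho = 0.597), against r = 0.316 (rho = 0.182) across 38039 transcripts of similar level, whose medians were -0.02 and -0.01. Points share the same 4 libraries and neighbouring IDs can share reads, so these coefficients are a description. The labels give IP and input libraries the same replicate numbers, but do not state that they came from the same RNA.

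**Figure D3:**
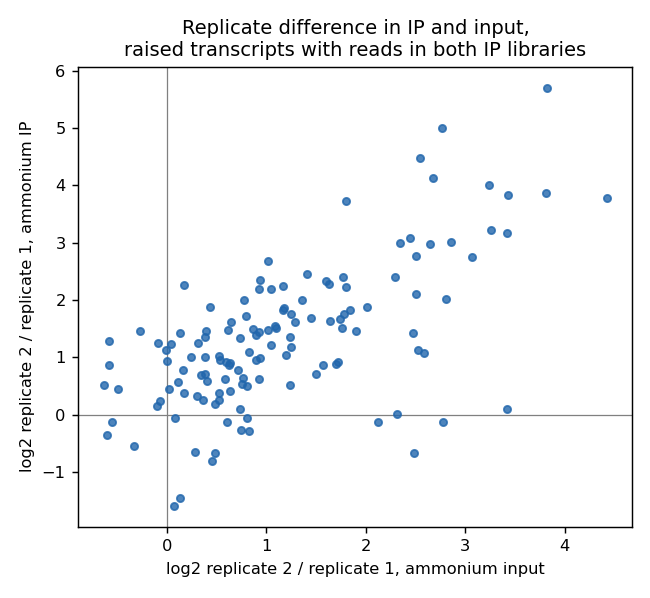
Log2 ratio of replicate 2 to replicate 1 in the ammonium IP (vertical axis) against that in the ammonium input (horizontal axis), 1 point for each of 131 raised transcripts with at least 3 reads in both IP libraries. Of these, 106 lie above and to the right of both zero lines, where replicate 2 is higher in both.

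In the IP these transcripts were low. Their mean level had a median of 0.335 CPM in the ammonium IP and 0.176 CPM in the water IP, where transcripts of similar level had 3.01 and 4.28 CPM. Those were not matched to the raised transcripts and share only the minimum of 3 CPM in the ammonium inputs. Their median level there was 10.1 CPM, against 9.41 for the raised ones. The rule required low water inputs, so a low water IP level beside them is partly fixed by the choice. A mean under 1 CPM was found for 138 in the ammonium IP (34.7% of transcripts of similar level) and for 154 in the water IP (23.9% of those). No read was counted in the water IP for 11 transcripts, and every transcript had at least 1 read in the ammonium IP. A total of 3 reads or fewer was found for 2 in the ammonium IP and 23 in the water IP, and 3 reads in 1 IP library are worth 0.0410 to 0.0518 CPM.

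The log2 ratio of IP over input describes how much of a transcript was recovered with the antibody relative to other transcripts. With ammonium its median over the 184 was -4.52 (quartiles -5.63 and -3.16), against -1.44 for transcripts of similar level and -0.74 for all transcripts tested. A level more than 16-fold lower in the IP was found for 107 of the 184 (58.2%), against 23.7% of transcripts of similar level. The ratio was above 0 for 5. With water, 173 of the 184 passed the count filter, and their median was -3.01, against -0.98 for transcripts of similar level and -0.30 for all tested. The rule picked transcripts that were high in the ammonium inputs, which lowers the ammonium ratio, and low in the water inputs, which raises the water ratio, so the step between the medians is partly fixed by the choice. The ratio changed with ammonium by a median log2 value of -1.19 for these transcripts and -0.22 for all tested, and that value is tied to the choice in the same way.

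The transcript of highest mean level in the ammonium inputs was low in the IP. For pp_203543, the IP held 1.45, 0.915 and 1.95 CPM with ammonium and 1.496, 1.21 and 0.552 CPM with water, and its log2 IP over input with ammonium was -6.32 (SE 0.28). Its neighbour pp_203542 had 2 reads in the 3 ammonium IP libraries together and 0 in the 3 water IP libraries, at input levels of 8.72, 12.6 and 13.3 CPM with ammonium and 3.67, 2.81 and 3.95 CPM with water. For pp_237483, which had 8.80, 18.8 and 13.9 CPM in the ammonium inputs, the ammonium IP libraries held 2 reads in all, and the water IP libraries held 20 reads, all of them in replicate 1. No fold is given for these low counts.

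At the other end, pp_163804 and pp_108799 were higher in the IP than in the input in both treatments. The log2 IP over input of pp_163804 was 2.96 (SE 0.23) with ammonium and 2.54 (SE 0.28) with water. For pp_108799 it was 2.33 with ammonium and 2.39 with water. A mean of 10 CPM or more in the ammonium IP was reached by 7 transcripts in all, which besides these were pp_235812, the last member of the longest run described below, and pp_105375, pp_105377, pp_105378 and pp_105385, whose ID numbers lie close together (named for their level in the IP, after it was seen).

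**Figure D4:**
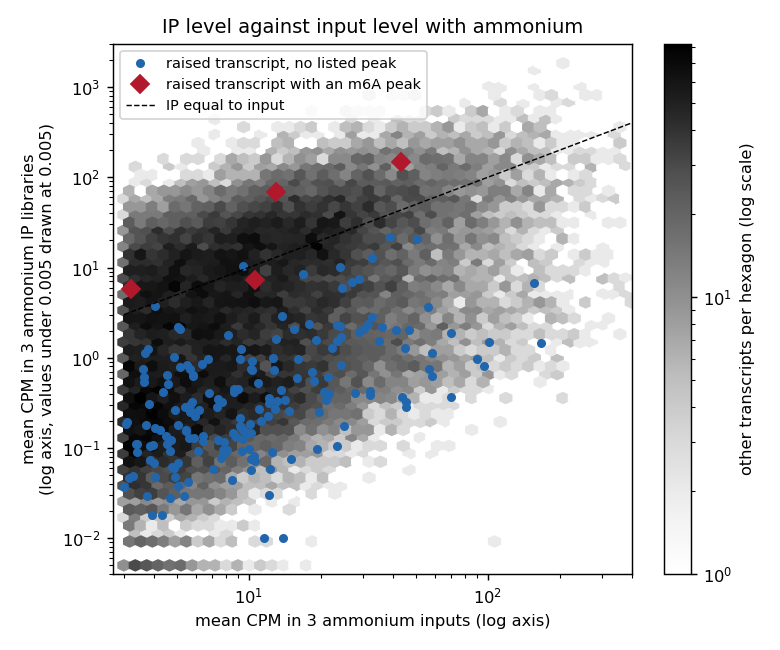
Mean level in the 3 ammonium IP libraries against the mean level in the 3 ammonium inputs, both in CPM on log axes. Blue points are raised transcripts without a listed m6A peak, red diamonds are the 4 with a peak, grey hexagons count the other transcripts of similar level, and the dashed line marks equal levels. Most blue points lie far under the line, and pp_163804 and pp_108799 lie clearly above it.

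Ammonium IP and water IP libraries were compared as the measure that the rule did not use, although IP and input may hold RNA of the same roots. No raised transcript passed the quasi-likelihood test of edgeR at a Benjamini-Hochberg adjusted p of 0.05 over the 99846 transcripts tested (0% of all transcripts were called, in either direction). The count filter kept 102 of the 184, and a transcript that passed it only through its ammonium values had to differ, so the counts that follow describe those 102. An unadjusted p under 0.05 was reached by 37 in the higher direction and 0 in the lower, where 5.25% and 5.2% of all transcripts tested did so. The log2 fold change was above 0 for 93 of the 102, against 38.1% of all tested, and its median was 1.14, against -0.23 for all tested and -0.04 for those of similar level. Without replicate 1 of the water IP, 70 of 125 reached an unadjusted p under 0.05 in the higher direction, against 3.57% of all tested. The median of the 125 was 1.80, against -0.16 for all tested. Without replicate 2 of the water IP, 45 of 133 did so, against 6.72%, with a median of 0.91 against -0.07. Without replicate 2 of the ammonium IP, 19 of 106 did so, against 3.99%, with a median of 0.79 against -0.25.

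Over all 184, with no filter, the mean was higher in the ammonium IP than in the water IP for 146, against 32.1% of transcripts of similar level. The median difference in log2(CPM + 0.1) was 0.65, against -0.29 for transcripts of similar level, and this scale understates changes of low transcripts. The 3 ammonium IP values all lay above the 3 water IP values for 38 (20.7%), against 2.13% of all transcripts and 7.56% of those of similar level. They all lay below for 1, against 7.07% and 8.86%. In the water IP, replicate 1 was the highest library for 65.9% of the 173 transcripts with reads there, as it was for 63.6% of transcripts of similar level. Without replicate 1 of the water IP, 84 of the 184 lay above (13.8% of transcripts of similar level and 4.46% of all), and the median difference was 1.04, against -0.01. With replicate 2 of the water IP left out it was 0.45, against -0.44. With replicate 2 of the ammonium IP left out it was 0.33.

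Other ways of testing called some of these transcripts higher in the IP and none lower. DESeq2 called 15 (0.049% of all tested), edgeR without a filter on low counts 22 (0.271%), and edgeR with all 12 libraries in the fit 7 (0.526%). With the replicate number as a block 1 was called (0.00501%), and with water IP replicate 2 left out 1 (0.00276%). In edgeR, median-of-ratios size factors, library totals alone, a filter of at least 50 reads in 3 libraries and fits without robust estimation each called 0. Leaving out any single IP library other than water IP replicate 2 also called 0. Whether any raised transcript was called therefore depended on the test and filter, and most edgeR alternatives with a filter called none.

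The transcript nearest to the threshold was pp_163804, with 52.0, 75.7 and 80.2 CPM in the ammonium IP and 12.04, 13.8 and 18.2 CPM in the water IP. The groups were far apart, with means of 69.3 ± 15.2 and 14.7 ± 3.18 CPM (SD, n = 3 each), and the log2 fold change was 2.44 (SE 0.25, Benjamini-Hochberg adjusted p = 0.0717, edgeR's quasi-likelihood test). It was called by each alternative above that called any raised transcript. Its adjusted p in edgeR was 0.00916 with all 12 libraries and 0.0392 without water IP replicate 2. In the input it had 9.23, 15.6 and 14.0 CPM with ammonium and 3.84, 3.36 and 3.95 CPM with water. The transcript 2 IDs before it, pp_163802, had means of 73.9 and 16.6 CPM in the ammonium and water IP and 24.3 and 8.47 CPM in the ammonium and water input, and missed the rule with a ratio of 1.81. Whether these IDs share reads was not tested, so they are uncertain as separate transcripts.

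The highest IP level belonged to pp_108799, with 122, 182 and 142 CPM in the ammonium IP and 40.2, 65.3 and 63.8 CPM in the water IP (149 ± 30.7 and 56.4 ± 14.1, SD, n = 3 each). The groups did not overlap, and the log2 fold change of 1.59 (SE 0.25) did not pass edgeR's quasi-likelihood test (adjusted p = 0.464). It passed with DESeq2, without a filter and with all 12 libraries. Its input values were 36.1, 47.9 and 45.5 CPM with ammonium and 15.3, 17.0 and 15.2 CPM with water.

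The transcripts of highest mean ammonium input level differed from each other in the IP. For pp_209097 the IP held 5.06, 9.54 and 5.37 CPM with ammonium and 4.41, 2.12 and 4.45 CPM with water, without overlap, and the log2 fold change was 1.08 (SE 0.37, adjusted p = 0.464, edgeR). For pp_203543 the IP groups overlapped, and the log2 fold change was 0.64 (SE 0.50, adjusted p = 0.621, edgeR).

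In the lower direction the 2 transcripts of smallest p rested on replicate 1 of the water IP. For pp_181093 the IP held 0.0747, 0.178 and 0.305 CPM with ammonium and 1.56, 0.102 and 0.173 CPM with water, a log2 fold change of -1.43 (SE 0.99, adjusted p = 0.584, edgeR). For pp_127323 it held 0.179, 0.424 and 0.610 CPM with ammonium and 2.83, 0.323 and 0.0345 CPM with water, a log2 fold change of -1.10 (SE 1.08, adjusted p = 0.689, edgeR). The water groups were high in 1 library and low in the others, and without that library the log2 fold changes were 0.56 and 1.29.

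The authors' deposited peak lists held an m6A peak on 4 of the 184 transcripts (2.17%, 95% Wilson interval 0.849% to 5.46%, counting error only). The interval treats the 184 as independent, while neighbouring IDs can share reads, so it is no test against other shares. In either list, 2.79% of all transcripts and 10.3% of transcripts of similar level had a peak. All 4 were in the ammonium list and 3 also in the water list. Each list stands for 1 treatment, so peaks have no replicates, and the fold of a peak is the authors' own value. All 4 had a mean of at least 5.73 CPM in the ammonium IP. This level is the lowest of the 4, so they reached it by choice of the level. It was reached by 14 of the 184, and of the 20126 transcripts of the table that reached it 21.3% had a peak.

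The strongest peak was that of pp_108799, at positions 198 to 543 in both lists (346 bases), read as positions counted from 1 along the transcript. Its fold was 46.4 in the authors' deposited table for ammonium and 55.6 in that for water, where the median folds of the lists were 12.7 and 11.7. The peak of pp_163804 lay at positions 392 to 489 (98 bases), was in the ammonium list only, and had a fold of 9.33 in the authors' deposited table, under the median of its list. The water IP levels of this transcript were given above and were not 0.

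The other 2 transcripts with peaks had moderate levels. On pp_178179 a peak at positions 49 to 286 had a fold of 10.0 in the authors' deposited table for ammonium, and a peak at positions 144 to 239 inside it had a fold of 9.20 in that for water. Its IP held 5.47, 6.46 and 5.26 CPM with ammonium and 3.76, 2.18 and 1.95 CPM with water, without overlap (log2 fold change 1.36, SE 0.31, adjusted p = 0.464, edgeR). Its inputs held 3.53, 3.38 and 2.74 CPM with ammonium and 1.17, 1.24 and 1.35 CPM with water.

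On pp_234162 the peaks ended at the same position, 1642, and began at 1343 with ammonium and 1393 with water. The folds were 16.1 and 6.67 in the authors' deposited tables for ammonium and water. The IP of this transcript held 4.42, 7.20 and 10.1 CPM with ammonium and 3.24, 2.48 and 1.71 CPM with water, without overlap (log2 fold change 1.77, SE 0.35, adjusted p = 0.464, edgeR). Its inputs held 5.01, 14.2 and 12.7 CPM with ammonium and 1.64, 2.03 and 2.13 CPM with water. The log2 IP over input was -0.02 with ammonium and 0.87 with water.

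Raised transcripts stood next to each other in the order of ID numbers. Of the 184, 96 (52.2%) lay in 30 runs of 2 or more consecutive IDs, and 88 stood alone. There were 18 runs of 2, 5 of 3, 2 of 4, 2 of 5, and 1 each of 6, 7 and 14 IDs, so that the 184 formed 118 separate stretches. Allowing 1 missing ID inside a run put 118 transcripts in 34 runs. Raised transcripts made up 0.454% of those of similar level, and 84.5% of transcripts of similar level had another such transcript as a direct neighbour. What the ID order stands for is not given in the sources used here. IDs of 1 run could be forms or fragments of the same gene that share reads, so they are not independent cases.

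The IDs directly beside raised transcripts were often higher with ammonium too. There were 218 such IDs that did not meet the rule, and 117 of them had a mean input level of 1 CPM or more. Their median log2 difference between ammonium and water inputs was 0.82, against -0.03 for 61720 other transcripts at that level. The ammonium inputs all lay above the water inputs for 69 (59.0%), against 8.60% of the others, and the mean was at least 2-fold higher for 49 (41.9%), against 1.33%. The mean was higher with ammonium for 101 of the 117 and lower for 16. The rule used these same input libraries to choose the transcripts beside them, and neighbouring IDs can share reads. These shares are therefore a description.

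The longest run held 14 IDs, pp_235799 to pp_235812. Their summed level was 161, 191 and 160 CPM in the ammonium inputs and 47.0, 39.3 and 36.9 CPM in the water inputs (171 ± 17.3 and 41.1 ± 5.30, SD, n = 3 each). The ammonium replicates were close here, and replicate 1 was the highest for 6 of the 14 and replicate 2 for 8. The summed IP level was 13.8, 11.97 and 16.8 CPM with ammonium and 14.8, 14.0 and 21.6 CPM with water, so the treatments overlapped in the IP.

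Most of that IP signal came from the last ID. For pp_235812 the IP held 12.7, 10.4 and 15.6 CPM with ammonium and 11.4, 13.6 and 21.1 CPM with water, at input levels of 24.4, 43.2 and 30.5 CPM with ammonium and 8.72, 8.42 and 5.94 CPM with water. The IP groups overlapped (IP log2 fold change -0.05, SE 0.29, adjusted p = 0.951, edgeR), while the rule excluded overlap of the input groups. Its log2 IP over input was -0.80 with ammonium and 1.55 with water, and over the run the ammonium values reached down to -8.08.

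**Figure D5:**
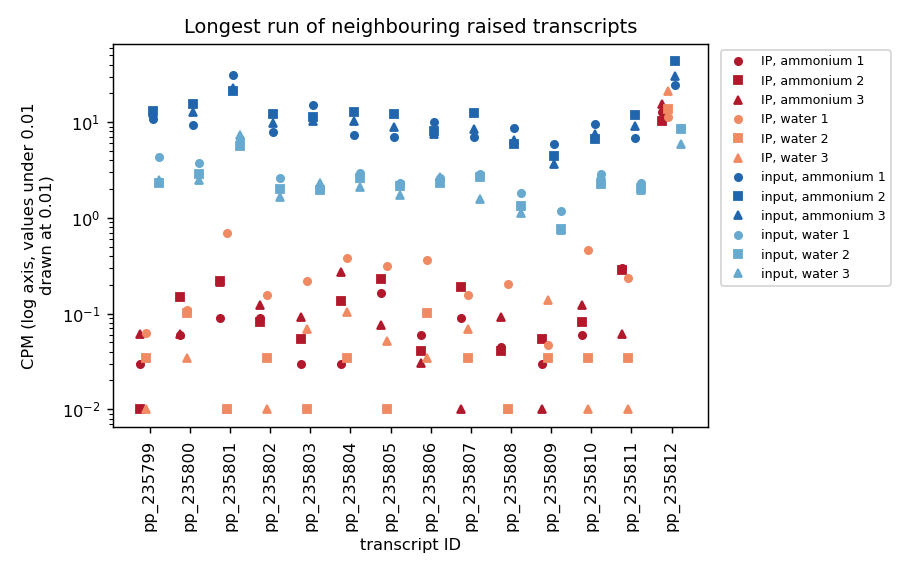
Level in CPM on a log axis of the 14 transcripts of the longest run, in order of ID, with each library as 1 point: ammonium IP in red, water IP in orange, ammonium input in dark blue, water input in light blue, and symbols for replicates 1 to 3. The inputs are separated at every ID by construction of the rule. The IP values are under 1 CPM for all IDs but the last, and at pp_235812 the IP values lie between 10.4 and 21.1 CPM in both treatments.

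The next longest run held 7 IDs, pp_164706 to pp_164712. Its summed level was 9.51, 65.9 and 41.8 CPM in the ammonium inputs and 2.10, 2.67 and 2.64 CPM in the water inputs. Replicate 2 was the highest ammonium input for all 7. In the IP the sums were 1.42, 18.7 and 8.10 CPM with ammonium and 1.13, 0.425 and 1.24 CPM with water, so that the lowest ammonium sum was close to the highest water sums and the highest was far above them. The highest input level in the run was that of pp_164712, with 2.35, 16.0 and 12.5 CPM in the ammonium inputs and 0.466, 0.715 and 0.406 CPM in the water inputs. Its IP held 0.0597, 1.91 and 0.763 CPM with ammonium and 0.0315, 0 and 0 CPM with water.

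The run of 6 IDs, pp_198900 to pp_198905, had the highest mean summed level of all runs in the ammonium inputs, with 173, 392 and 252 CPM in the ammonium inputs and 50.5, 47.4 and 70.1 CPM in the water inputs. Its IP sums were 4.84, 13.7 and 7.25 CPM with ammonium and 8.36, 1.73 and 4.04 CPM with water, and they overlapped through replicate 1 of the water IP. One of the 2 runs of 5 IDs, pp_231920 to pp_231924, had 5.64, 63.4 and 30.7 CPM in the ammonium inputs and 0.883, 0.662 and 1.51 CPM in the water inputs. Its IP sums were 0.149, 3.16 and 1.72 CPM with ammonium and 0.110, 0.0340 and 0.173 CPM with water. In both runs replicate 2 was the highest ammonium input for every ID (these runs were chosen after their values were seen).

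Near-equal values were found for some IDs of close number. Of 120 pairs of raised transcripts no more than 2 IDs apart, 11 differed by at most 10% in each of the 3 ammonium inputs, and 0 pairs were identical in all libraries. The closest were pp_231920 and pp_231922, which differed by at most 2.54%. The other pairs differed by more than 10% in at least 1 ammonium input. How reads matching several IDs were counted is not given in the sources used here.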

How the data were processed

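Whole-number read counts per transcript ID, not normalized, were deposited by the authors in 1 table for 12 libraries (4 groups of 3). The submitters' processing notes name bcl2fastq and BWA. The sources used here do not give the reference sequences, the counting rule, the strandedness or the peak caller. Per the file headers, each peak of the deposited lists (1 per treatment) has a fold enrichment (a ratio, taken here as IP over input). Start and end were taken here as positions along the transcript, as the lists name a transcript in place of a chromosome. A deposited score column was read as a p-value from its values and not used further.

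CPM was computed here from the deposited counts and library totals. Tests used edgeR 4.0.16 in R 4.3.3 with TMM scaling, robust quasi-likelihood fits, the default expression filter (count setting 10, total setting 15) and Benjamini-Hochberg adjustment over all transcripts tested, at 0.05. The fold changes of the IP and input fits were checked on simulated counts. Changes were placed there only in transcripts of higher counts than most raised transcripts had in the IP. No simulated library stood apart, so this check does not show how well the tests call the raised transcripts. The IP contrast used the 6 IP libraries, the IP over input contrasts the 6 libraries of a treatment, and the change of the ratio all 12. DESeq2 1.42.0, other scalings and filters, a replicate block and omission of single libraries were alternatives. Tables and figures were made with pandas 2.3.3, scipy 1.17.1 and matplotlib 3.10.9 in Python 3.11.15. The p-values measure the spread between 3 libraries. Each SE of an edgeR log2 fold change was derived here, as its absolute value over the square root of the F value of the test.

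The transcripts, lists and comparisons were chosen with earlier results of these data known. Transcripts were named by rule: at most 2 per direction for level, input ratio, run length, IP p, IP over input, peak fold and closeness to the threshold. Others are marked as chosen after their values were seen.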

Additional observations from a re-analysis of the deposited data

Results flagged for a closer look

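For pp_105377 the ammonium inputs lay above the water inputs, as the rule required, while its ammonium IP values lay slightly below its water IP values in CPM. Its IP held 10.3, 9.95 and 10.6 CPM with ammonium and 11.6, 12.2 and 10.9 CPM with water, a difference of means of -1.31 CPM, while its inputs held 9.11, 9.68 and 9.44 CPM with ammonium and 3.39, 3.51 and 3.75 CPM with water. The fitted change of its IP/input ratio with ammonium was -1.31 on the log2 scale (SE 0.24). For that change edgeR called 0 of all 148273 transcripts tested, and so 0 of the 184. No p is given for pp_105377, since its input values were used to choose it. In edgeR's quasi-likelihood test of the IP its log2 fold change was 0.04 (SE 0.20, adjusted p = 0.942), and with TMM-scaled library sizes its IP groups overlapped.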

How the results depend on the processing

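The number of raised transcripts was 438 at 1.5 times, 39 at 3 times and 88 at a minimum of 10 CPM, and ran from 158 to 583 with 1 input library left out, highest without ammonium input replicate 1. In the IP, 15 were called higher with DESeq2, 22 without a filter, 7 with all 12 libraries and 0 to 1 with 1 library left out. The other scalings, the stricter filter and the fit without robust estimation called 0. With the replicate number as a replicate block 1 was called (0.00501% of all tested), pp_163804, with an adjusted p of 0.00344 in edgeR. Replicate numbers were not taken to pair the libraries. Correlations of the deviations of ammonium and water libraries of the same number were 0.107, 0.105 and -0.00769 in the IP. In the inputs they were -0.00186, 0.114 and 0.0918. Between unlike numbers they ran from -0.133 to 0.0346 in the IP and from -0.113 to 0.0202 in the inputs. The own number was the best match for ammonium IP replicates 1 and 2 and ammonium input replicates 2 and 3. Ammonium IP replicate 3 correlated best with water IP replicate 1, and ammonium input replicate 1 with water input replicate 3. These small values do not settle whether equal numbers mark the same run of the experiment. In the input, 183 of the 184 were called with DESeq2, 142 with the replicate block and 32 to 164 with 1 library left out, fewest without water input replicate 1. Of all transcripts tested, 1997 of 204653 were called higher with DESeq2 and 720 of 114887 with the block. With 1 library left out, 36 of 119375 to 2494 of 120601 were called higher. The rule used the input libraries, so the member counts are tied to the choice. These input alternatives were chosen after seeing the data, as was the count of 84 non-overlapping IP groups without water IP replicate 1. With TMM-scaled library sizes 0 transcripts had lower IP groups without overlap, against 1 with library totals, and 53 had higher ones, against 38. On that scale the rule returned 189 transcripts, and 175 of the 184 were kept.

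The median log2 IP over input with ammonium was -5.06 with library totals alone (-1.28 for all transcripts tested) and -5.15 to -4.12 with 1 library left out. With water it was -3.79 to -2.61 with 1 library left out, and the change of the ratio was -1.63 to -0.47. Of the 4 transcripts followed singly (pp_163804, pp_108799, pp_181093 and pp_127323), the direction turned for 2: pp_181093 ran from -1.97 to 0.56 with 1 library left out (0.56 without water IP replicate 1), and pp_127323 from -1.78 to 1.29 (1.29 without the same library) and 0.20 with the replicate block. The cause was not tested. With library totals alone the IP median was 0.90 for these transcripts and -0.45 for all tested.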
